A study of Mus musculus with 11 samples.

Results

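The regions described here are the 799 tiles of 100 kb, on chromosomes 1 to 19 of mouse build mm9, in which MacroH2A2 antibody signal, as RPM (reads scaled to library size), was at least 1.5 times higher in embryonic fibroblasts (MEFs) than in embryonic stem (ES) cells. They were selected on the read counts of the anti-MacroH2A2 ES and MEF libraries, after the top 1% of tiles by reads of the uninduced anti-HA library had been discarded and at least 50 read midpoints had been required in both antibody libraries. Of 24731 tiles, 249 were discarded, a further 1041 had too few midpoints, and 23441 were eligible, so that the members made up 3.41% of the eligible tiles. In the opposite direction, 941 eligible tiles had at least 1.5 times more RPM in ES cells.

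The study followed newly made histone variants by pulse labelling, and the series holds 11 ChIP-seq libraries, with 1 library per condition. All cells were of strain 129 X C57bl/6. The inducible lines were derived from KH2 ES cells, which carry the M2rtTA transactivator at ROSA26, and an HA-tagged MacroH2A2 or H3.3 cDNA under a tetracycline operator with a minimal CMV promoter was placed downstream of Col1a1. Doxycycline (Dox) at 2 µg/mL switched the tagged histone on. HA-Macro ES libraries were made without Dox and after 3, 6 and 12 h, and HA-H3.3 ES libraries after 3 and 6 h. HA-Macro MEF libraries were made after 3, 6 and 12 h. Their fibroblasts came from chimeric embryos, with host cells removed by puromycin, to which a cassette at ROSA26 gave resistance. The anti-MacroH2A2 libraries came from parental KH2 ES cells and wild type MEFs without treatment, per the labels, and each combined 2 replicates in 1 file. The study's text also describes antibody maps of HA-Macro cells with and without Dox, so the sources differ on these cells, and the labels were followed. ES cells were grown on feeder MEFs, which were depleted by pre-plating before induction. Libraries held between 6485439 and 20540691 reads on chromosomes 1 to 19, X and Y. No condition had a second library, so no spread between replicates could be measured. Every interval printed below is an exact 95% interval for counting error only. The MEF/ES contrast of HA-Macro was measured at 3 Dox times, and no test was made over them, since an exact two-sided test of 3 pairs cannot go below p = 0.25.

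MacroH2A2 is an H2A variant with a large globular domain fused to its histone fold, and in somatic cells it is best known from broad silent chromatin such as the inactive X chromosome. It is more abundant in differentiated cells than in ES cells, and it is one of the chromatin features that resist the return of a somatic cell to pluripotency. H3.3 is the histone H3 variant that is put into chromatin outside replication, mostly at active genes. An antibody to the endogenous protein shows where MacroH2A2 has accumulated, whereas a tag induced for a few hours shows where new molecules are placed.

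Protein-coding genes that start in the member tiles outside the chromosome 3 block tended to have CpG-poor upstream sequence. The 2 stretches below are shown because their genes lie in member tiles with a MEF excess in both the antibody and the HA-tag libraries. They are the 300 bases before the annotated start, read 5′ to 3′ on the strand of the gene from the mm9 genome, with each CG dinucleotide in capitals.
Ccl2 (chr11:81848773-81849072, plus strand): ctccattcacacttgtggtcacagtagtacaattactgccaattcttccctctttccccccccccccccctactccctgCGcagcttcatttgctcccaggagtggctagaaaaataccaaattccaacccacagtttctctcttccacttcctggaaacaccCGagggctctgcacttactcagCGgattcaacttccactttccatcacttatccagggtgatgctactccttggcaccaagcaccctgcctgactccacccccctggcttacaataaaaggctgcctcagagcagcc
Runx1 (chr16:92826312-92826611, minus strand): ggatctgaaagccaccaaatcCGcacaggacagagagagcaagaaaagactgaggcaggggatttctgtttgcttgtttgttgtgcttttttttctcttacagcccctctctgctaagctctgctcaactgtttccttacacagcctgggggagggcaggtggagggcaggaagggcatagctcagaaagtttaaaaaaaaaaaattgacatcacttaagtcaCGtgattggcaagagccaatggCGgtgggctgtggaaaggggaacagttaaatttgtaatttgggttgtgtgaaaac
Ccl2 encodes a chemokine that attracts monocytes, and its upstream sequence held 3 CG dinucleotides. Runx1, a transcription factor needed to make blood stem cells, had 3 before its distal start. Over the 101 protein-coding starts in member tiles outside the block, which is described next, the median was 4 CG dinucleotides in 300 bases and 49.5% held 3 or fewer, whereas over 20344 starts in eligible tiles the median was 10 and 26.7% held 3 or fewer. The 74 starts in members of the block lay between, with a median of 6.5 and 36.5% at 3 or fewer. The letters TATAAA, read on either strand, were found in 21.8% of the starts outside the block and 14.6% of those in eligible tiles.

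One library stood apart in a way that bears directly on membership. Between chr3:57100001-71400000, a block of 14.3 Mb, 135 of 141 eligible tiles were members (95.7%), whereas 2.85% of the eligible tiles elsewhere were. The block held 16.9% of all members. Relative to the median eligible tile, the median level in the block was 0.480 in the anti-MacroH2A2 ES library and 0.847 in the 10 Mb on each side, a ratio of 0.566. In the other libraries the block lay at 1.02 to 1.16 times its flanks, with 1.02 in the uninduced ES library, 1.12 in HA-Macro ES 12 h, 1.16 in HA-H3.3 ES 6 h, 1.10 in the anti-MacroH2A2 MEF library and 1.10 in HA-Macro MEF 12 h. The antibody signal in ES cells over HA-Macro ES 12 h had a median log2 ratio of -0.81 in the member tiles of the block and of 0.23 in the other members. Its borders were found after the data had been seen, as the highest-scoring stretch in which this library was lower than the mean of the other ES libraries. Only the best-scoring stretch of each chromosome entered this ranking. The next of these, chr12:17800001-25100000 and chr13:61700001-68700000, scored 32.6 and 14.0 against 74.0, and they held 0 and 2 members, which were kept. The cause of the low signal was not tested. Since the label of more MacroH2A2 in MEFs rests in the block on 1 low ES library, results are given for the 664 members outside the block and, apart from them, for the 135 inside.

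**Figure D1:**
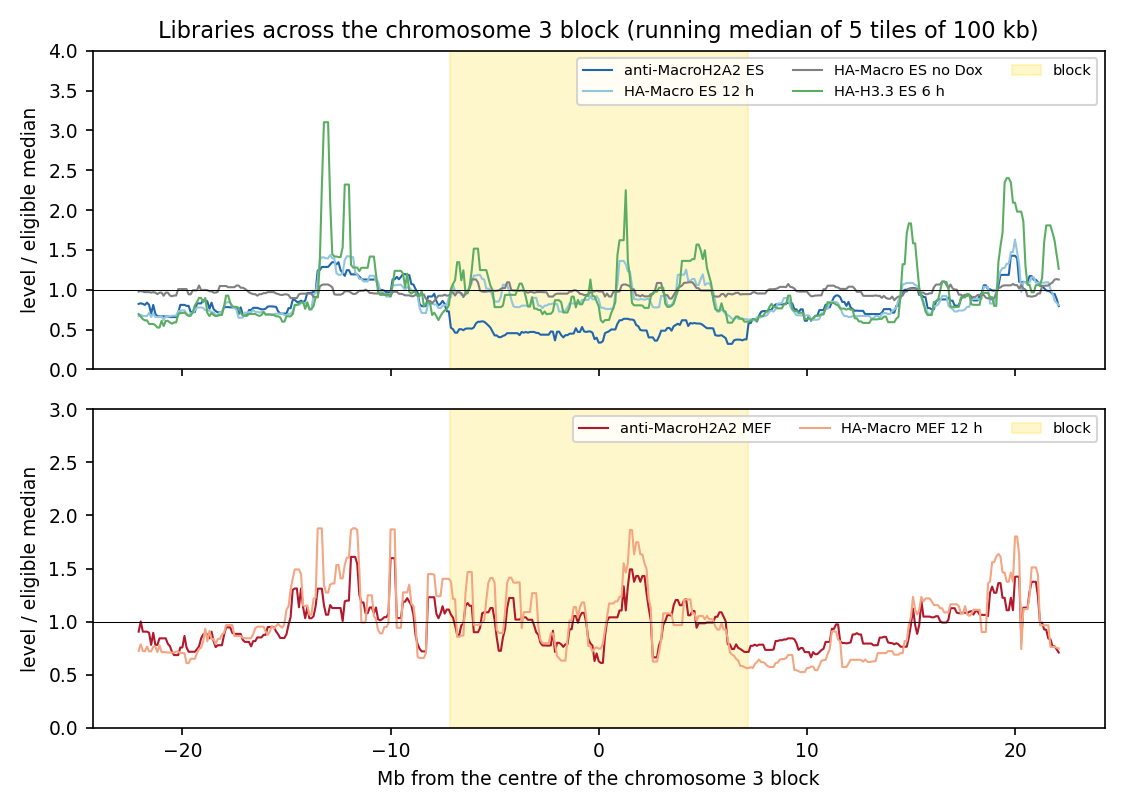
Level of ES libraries (top) and MEF libraries (bottom) along chromosome 3, as RPM over the median eligible tile (running median of 5 tiles), against the distance in Mb from the centre of the block, which is shaded. The anti-MacroH2A2 ES line drops inside the shaded stretch to a median of 0.480, and the other lines show no such drop over the whole stretch.

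The induced HA-Macro libraries, which the rule did not use, also carried a MEF excess in the members outside the block and little of it inside. The block itself was delimited by setting the antibody against ES libraries that included HA-Macro ES. The contrast between outside and inside is therefore partly fixed by the split. At 12 h, 609 of the 664 members outside the block (91.7%) had at least 1.5 times more HA-Macro RPM in MEFs than in ES cells, with a median log2 ratio of 1.01 and quartiles of 0.82 and 1.18. The background was 13.2% of the eligible tiles, whose median log2 ratio was -0.04, and 18.5% of the eligible tiles without a protein-coding start. At 6 h the share was 89.3% against 12.8% of the eligible tiles and 17.6% of those without a coding start, and at 3 h it was 93.8% against 19.1% and 24.5%. Inside the block, 25 of 135 members (18.5%) reached 1.5 times at 12 h, 15.6% at 6 h and 25.9% at 3 h. These shares were close to the background of tiles without a coding start and somewhat above that of all eligible tiles. Of the members in the block, 61.5% held no protein-coding start, against 57.1% of eligible tiles. Over the 3 times the medians had a mean of 1.03 ± 0.05 (SD, n = 3 times) outside the block, 0.18 ± 0.03 inside it and -0.01 ± 0.05 in eligible tiles. Taking all 799 members together, 79.3% reached 1.5 times at 12 h with a median log2 ratio of 0.95. None of the 941 tiles with more antibody signal in ES cells reached 1.5 times at 3, 6 or 12 h, and their median log2 ratio at 12 h was -0.52.

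Counting error was small beside most HA-Macro ratios outside the block, and less so inside it. Outside the block, the interval of the HA-Macro 12 h ratio lay wholly above 1 in 657 members and wholly below 1 in 5, and its lower bound reached 1.5 in 556. Inside the block it lay wholly above 1 in 69 members and wholly below 1 in 23. Such intervals were counted for members only, and of all eligible tiles 47.0% had a 12 h ratio above 1. For the antibody ratio that chose the members, the lower bound was above 1 in all 799 but reached 1.5 in only 104 of those outside the block and 101 of those inside. With a fold of 2 in the rule, 83 tiles were left, of which 76 lay in the block and 7 outside it.

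**Figure D2:**
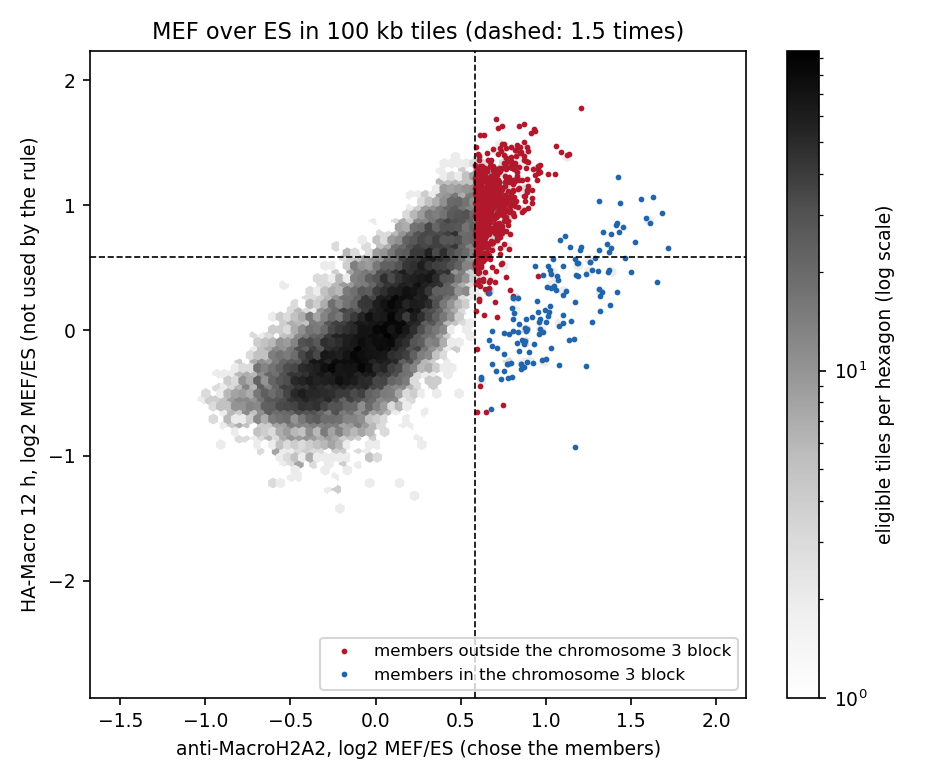
Log2 MEF/ES ratio with the MacroH2A2 antibody (x axis, the values that chose the members) against the log2 MEF/ES ratio of HA-Macro at 12 h (y axis), one position per 100 kb tile. Grey hexagons are the 23441 eligible tiles, red points the 664 members outside the chromosome 3 block and blue points the 135 inside; 609 red points and 25 blue points lie at or above the dashed line at 1.5 times.

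The tiles nearest the threshold did not mark a break in the HA-Macro data. The 3 members just inside it had 565, 717 and 806 midpoints in the anti-MacroH2A2 MEF library and 216, 274 and 308 in the ES library, with HA-Macro 12 h MEF/ES ratios of 1.53, 1.89 and 2.33. The 3 tiles just outside had 711, 753 and 863 midpoints in MEFs and 272, 288 and 330 in ES cells, with HA-Macro ratios of 2.47, 2.02 and 1.64. Across the 23300 eligible tiles outside the block, the antibody and HA-Macro 12 h log2 ratios had a Pearson r of 0.76 and a Spearman rho of 0.76. Within the 664 members outside the block r was 0.38, and within the 135 members inside it 0.76. All points of one axis share 2 libraries and neighbouring tiles are not independent, so these coefficients are descriptions.

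Levels in the members were high in MEFs and somewhat low in ES cells. In the members outside the block, the median level of HA-Macro MEF libraries was 1.64, 1.62 and 1.67 times the eligible median at 3, 6 and 12 h, which put the median member at the 88.2th percentile of eligible tiles at 12 h. The HA-Macro ES libraries lay below the eligible median, at 0.84, 0.81 and 0.83 times, as did the uninduced library at 0.93. In RPM, the median log2 ratio of HA-Macro ES 12 h over the uninduced library was -0.26 in these members. It was -0.25 in eligible tiles without a coding start and -0.09 in all eligible tiles. Eligible tiles without a coding start lay at 0.927 in HA-Macro MEF 12 h and 0.87 in HA-Macro ES 12 h, and 43.9% and 33.2% of them lay above the eligible median. The antibody libraries that chose the tiles lay at 1.45 in MEFs and 0.92 in ES cells. At 12 h, 96.5% of these members were above the eligible median in MEFs and 20.8% in ES cells, where by construction 50.0% and 50.1% of eligible tiles are. Inside the block, the HA-Macro MEF 12 h level was 1.02 times the eligible median and HA-Macro ES 12 h 0.88 times.

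HA-H3.3, measured in ES cells only, was also low in the members. Outside the block its median was 0.88 times the eligible median at 3 h and 0.79 times at 6 h, and 18.4% and 14.5% of the members lay above that median, against 49.8% and 49.9% of eligible tiles. In the 13384 eligible tiles without a coding start the medians were 0.892 and 0.821, and 31.2% and 29.9% lay above the eligible median. The log2 ratio of 6 h over 3 h was -0.42 in these members, -0.37 in the tiles without a coding start and -0.24 in all eligible tiles, whereas it was 0.31 in the 941 tiles with more antibody signal in ES cells. Between 3 and 12 h of Dox the HA-Macro level in these members changed little, with median log2 ratios of 0.10 in ES cells and 0.04 in MEFs, beside 0.04 and 0.01 in all eligible tiles, and with each library scaled to its median tile, which left 646 members, the values over all members were -0.028 and -0.0029. The ES 3 h library stood apart in its chromosome Y share, 0.130% of reads against 0.0337% and 0.0382% at 6 and 12 h. The anti-MacroH2A2 ES library that chose the members also had a high share, 0.106% against 0.0446% in MEFs, as had HA-H3.3 at 3 h with 0.107%. The chromosome X share of the antibody libraries was 2.49% in ES cells and 3.99% in MEFs. It lay between 2.92% and 3.02% in the HA-Macro MEF libraries and between 3.02% and 3.21% in the induced HA-Macro ES libraries. It was 3.57% in the uninduced ES library, and 2.49% and 2.23% in HA-H3.3 ES at 3 and 6 h. The study's text describes both cell types as male. The part of these shares in the results was not tested. Against the 6 h library the HA-Macro 12 h log2 ratio in ES cells was 0.03.

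**Figure D3:**
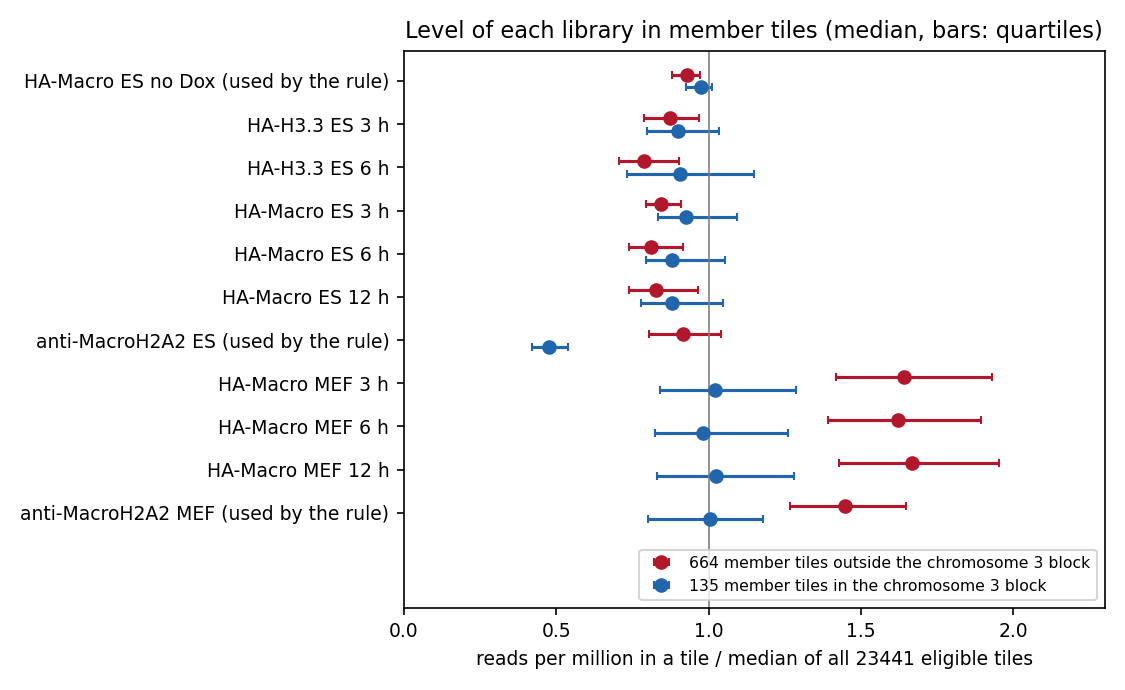
Median RPM of each of the 11 libraries in member tiles, divided by the median of the 23441 eligible tiles of the same library (x axis), with bars from the lower to the upper quartile of tiles. Outside the chromosome 3 block (red) the HA-Macro MEF libraries lie between 1.62 and 1.67 and the HA-Macro ES libraries between 0.81 and 0.84, and in the block (blue) only the anti-MacroH2A2 ES library is far below 1.

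The members were gene-poor. Outside the block they held 0.407 annotated gene starts and 0.152 protein-coding starts per tile, against 1.40 and 0.868 in eligible tiles, and 87.5% held no protein-coding start, against 57.1%. Protein-coding gene bodies covered 11.4% of their bases, against 39.6%, and 77.0% of these members had none at all, against 35.4%. The median distance from the tile's centre to the nearest protein-coding start was 191 kb, against 68.9 kb. GC content differed little, with medians of 40.3% and 41.4%. CpG density was lower, with medians of 6.39 and 7.79 per kb, and the upper quartile of these members was 7.73. The tiles with more antibody signal in ES cells were of another kind, with 3.77 gene starts per tile and a median GC content of 48.2%. Inside the block, members held 0.852 gene starts per tile. Membership was 4.96% among the eligible tiles without a coding start, so that most gene-poor tiles were not members.

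Outside the block, members with and without a gene start had like HA-Macro ratios. There, 92.8% of the 83 members with a protein-coding start and 91.6% of the 581 without one reached 1.5 times at 12 h. Inside the block the shares were 15.4% and 20.5%, with median log2 ratios of 0.03 and 0.31. Summed over these members, HA-Macro 12 h MEF/ES was 2.00 (1.91 to 2.09) within 2 kb of coding starts, 1.95 (1.93 to 1.97) in the rest of gene bodies and 1.97 (1.96 to 1.98) between genes. Over all eligible tiles the same classes gave 0.89, 0.93 and 1.12. In ES cells the antibody signal itself was densest near genes, with 661 RPM per Mb within 2 kb of coding starts, 442 in gene bodies and 370 between genes of eligible tiles. In the members outside the block the HA-Macro 12 h ratio was thus of similar size in the 3 classes. The antibody ratio, which chose the tiles and is given as a description, was 1.35 near starts, 1.62 in gene bodies and 1.61 between genes, where 88.3% of the length lay. Over all 799 members the HA-Macro 12 h ratio was 1.60, 1.63 and 1.87. Inside the block the values were 1.06, 1.08 and 1.25.

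Outside the block, members were spread over all 19 autosomes, from 1.66% of eligible tiles on chromosome 7 to 4.51% on chromosome 12. They formed 446 runs of adjacent members, of which 315 were 1 tile long, 88 were 2 and 43 were 3 or more. Runs of 2 or more tiles held 52.6% of these members, and 370 of the 446 runs contained no protein-coding start. Tiles in longer runs had higher HA-Macro 12 h ratios, with median log2 values of 0.91 in runs of 1 tile, 1.05 in runs of 2 and 1.15 in runs of 3 or more. The shares at 1.5 times or more were 87.3%, 93.8% and 97.7%. The antibody libraries set the run length, and their own median log2 ratio was 0.65, 0.67 and 0.70 in the same classes.

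The longest run outside the block was chr16:85900001-87100000, 1200 kb that began at the start of Adamts5, which encodes a protease that cleaves aggrecan. The gene for a related protease, Adamts1, lay 96.6 kb to its left. Per tile, the run had 30.7 RPM in the anti-MacroH2A2 ES library and 49.9 in the MEF library. HA-Macro gave 26.6, 27.4 and 27.0 in ES cells at 3, 6 and 12 h and 59.7, 60.3 and 59.8 in MEFs, from 1 library each. The uninduced ES library gave 37.5. The HA-Macro 12 h MEF/ES ratio was 2.22 (2.15 to 2.28). HA-H3.3 gave 31.2 at 3 h and 22.5 at 6 h.

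The next longest, chr14:23100001-24000000, held the start of Gm5670, overlapped 1700112E06Rik, and had Zfp503, a developmental repressor gene, 291 kb to its left and Kcnma1, which encodes a potassium channel, 118 kb to its right. Its HA-Macro 12 h ratio was 2.51 (2.43 to 2.60). It held 3 of the 7 members outside the block with an antibody ratio of at least 2. The highest of them, chr14:23400001-23500000, had 42.0 RPM with the antibody in ES cells and 96.9 in MEFs. HA-Macro there was 25.5, 28.5 and 30.1 in ES cells and 113, 109 and 103 in MEFs at 3, 6 and 12 h. The 12 h ratio of 3.42 (3.12 to 3.76) was the highest among the 799 members. The nearest coding genes of the other 4 tiles were Nudt7 at 57.5 kb (HA-Macro 12 h ratio 2.64), Snx13 at 67.9 kb (2.78), Gm15217 at 199 kb (2.38) and Agr3 at 152 kb (2.38). These genes are named here after their values were seen.

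Of the 10 longest runs outside the block, 4 held a protein-coding start, namely those of Adamts5, Gm5670, Runx1 and Adamts18. The last place was shared by several runs of 4 tiles and went to the one with the highest antibody ratio. The neighbours of the runs were read after the values were known. The run chr2:117300001-117900000 ended 37.6 kb before Thbs1, the gene for the matrix protein thrombospondin 1, and had the highest 12 h ratio of the 10, 2.63 (2.53 to 2.74). The run chr4:56000001-56500000 lay 455 kb to the right of Klf4, a transcription factor gene used both in ES cells and in somatic cells, with a ratio of 2.37 (2.27 to 2.47). The run chr16:92800001-93300000 began at the distal start of Runx1 and extended away from the gene, with 2.31 (2.22 to 2.39). The lowest of the 10 was chr13:111300001-111800000, at 1.26 (1.21 to 1.30), where the 3 h and 6 h ratios were 1.82 and 1.64. Plk2, a kinase gene, lay 109 kb to its left. In this run the tiles chr13:111300001-111400000 and chr13:111500001-111600000 had 12 h ratios below 1, of 0.902 and 0.661.

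The signal did not fall sharply at the borders of runs. Over the 86 edges of runs of 3 or more tiles, the mean HA-Macro MEF 12 h level was 1.69 times the eligible mean in the first 100 kb inside, 1.42 in the first 100 kb outside and 1.23 at 400 to 500 kb outside. In ES cells HA-Macro 12 h was 0.82, 0.85 and 1.00, and HA-H3.3 6 h rose from 0.59 to 0.67 and 0.90. The tile grid sets where an edge lies, and within 20 kb of it the MEF 12 h level was 1.62 inside and 1.54 outside. Of the 825 eligible non-member tiles directly beside a member, 56.7% had an HA-Macro 12 h ratio of at least 1.5, falling to 33.5%, 25.2% and 19.3% at 200, 300 and 400 kb and 11.1% at 900 kb.

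**Figure D4:**
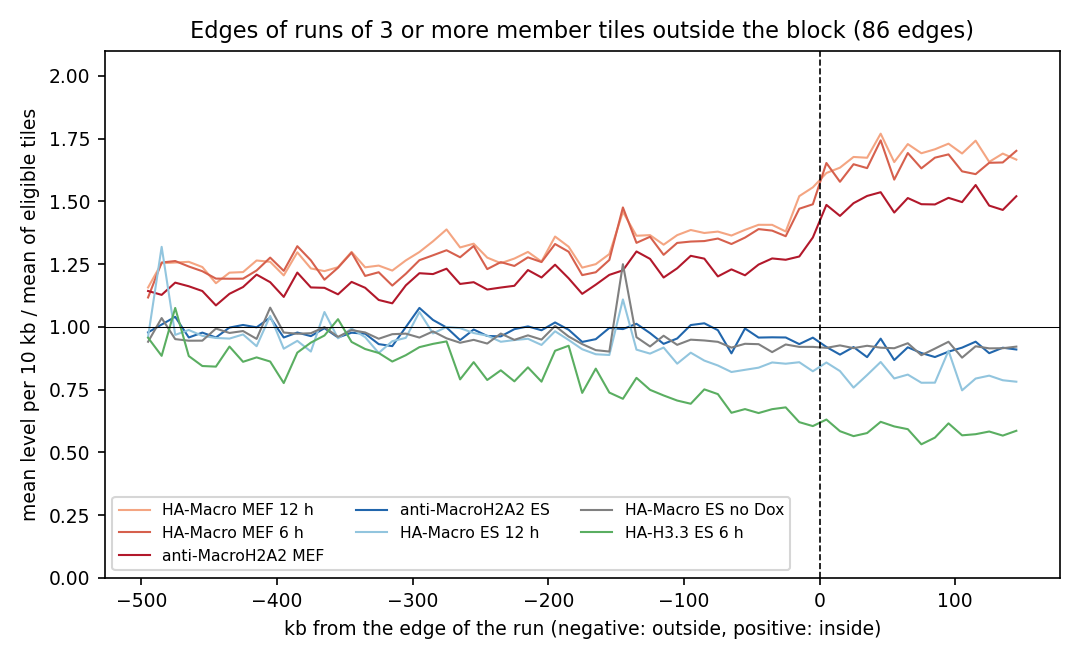
Mean level per 10 kb over the mean of eligible tiles (y axis) against the distance in kb from the edges of runs of 3 or more member tiles outside the chromosome 3 block (x axis, negative outside and positive inside, 86 edges, 7 of the libraries). The HA-Macro MEF 12 h line goes from 1.23 at 400 to 500 kb outside to 1.69 inside, and the HA-H3.3 ES 6 h line falls from 0.90 to 0.59; the narrow peak at 145 kb outside appears in the uninduced library too.

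Of 20349 protein-coding starts in eligible tiles, 175 (0.86%) lay in member tiles, 101 of them (0.496%) outside the block and 74 in it. At the share outside the block, a list of 100 genes would hold fewer than 1 such start, so a count of 0 in the shorter lists is at the background. None of the 1104 olfactory receptor genes, 346 Zfp genes, 51 keratins, 46 defensins, 96 cytochromes P450, 28 natural killer lectin receptors or 39 glutamate, GABA and glycine receptor genes started in a member tile. Neither did any of 42 collagens, 46 synaptic adhesion and axon guidance genes, 19 muscle genes, 19 spermatogenesis genes or 19 pluripotency genes. Of 252 vomeronasal receptor genes, 5 did, all in the block. The ribosomal protein list (132 genes) had 2, both annotated under pseudogene names, Rpl21-ps10 outside the block and Rpl32-ps inside. The channel list (130) had Kcne4 outside and Kcnab1 inside, the cadherin list (57) had Pcdh18, and the leukocyte list (20) had Tlr4.

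Interleukin and chemokine genes were the list with the most starts outside the block, 10 of 109 (9.17%). The tiles with more antibody signal in ES cells held 10 of the 109 as well, where 12.8% of all protein-coding genes started. Those in members shared few tiles, since chemokine genes lie in clusters. Ccl2, Ccl7 and Ccl11 shared chr11:81800001-81900000, Ccl12 and Ccl8 shared the next tile, and Cxcl5, Cxcl3 and Cxcl15 lay in 2 adjacent tiles of chromosome 5. Il1r1, a receptor chain for interleukin 1, and Il33, an alarm cytokine of stromal cells, lay alone. The Ccl2 tile had 44.0 RPM with the antibody in ES cells and 80.6 in MEFs. HA-Macro there was 26.8, 29.9 and 34.8 in ES cells and 90.9, 94.5 and 98.8 in MEFs at 3, 6 and 12 h. The ratios were 3.39, 3.16 and 2.84 (2.60 to 3.11), each from 1 library per cell type. The HA-Macro 12 h ratios of the other tiles were 2.41 for Ccl12 and Ccl8, 2.29 for Cxcl5, 2.17 for Cxcl3 and Cxcl15, 2.18 for Il1r1 and 2.04 for Il33. Over the whole list of 109 the median log2 ratio was -0.04, with 26 genes at 1.5 times or more, where 4.08% of all protein-coding genes were.

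Of the 20 fibroblast and mesenchymal genes, Dcn, which encodes the matrix proteoglycan decorin, was the only one to start in a member tile. Its tile, chr10:96900001-97000000, had 30.0 RPM with the antibody in ES cells and 49.3 in MEFs. HA-Macro was 25.7, 26.4 and 25.5 in ES cells and 51.4, 52.9 and 54.8 in MEFs, a ratio at 12 h of 2.14 (1.93 to 2.39), while the uninduced library gave 36.9. HA-H3.3 there was 30.4 at 3 h and 25.0 at 6 h. The tile belonged to a run, chr10:96800001-97200000, that also held the starts of the related proteoglycan genes Lum, Kera and Epyc, and 7 coding starts in all. The tile of Lum and Kera had an HA-Macro 12 h ratio of 2.45 (2.21 to 2.71) and that of Epyc 2.43 (2.18 to 2.73). Dcn and Lum are matrix genes that fibroblasts express, whereas Kera is known from the cornea and Epyc from cartilage, and expression was not measured in these libraries.

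Fibroblast genes near members were counted too. A reach wider than the tile holds at least as many starts of any list by construction. With a member outside the block centred within 500 kb of the start, a distance chosen after the values had been seen, the count was 8 of 20 (40%), namely Col3a1, Col5a2, Prrx1, Dcn, Twist1, Snai2, Lox and Postn. The same count was 9 of 42 collagens (21.4%), 23 of 109 interleukins and chemokines (21.1%), 6 of 20 leukocyte genes (30%), 0 of 19 pluripotency genes and 7.37% of all protein-coding genes. Among the pluripotency genes, Klf4 lay just past this distance, at 505 kb. Col3a1 and Col5a2 are neighbours and share their members. Apart from that of Dcn, the tiles of the 8 fibroblast genes had not passed the rule. Lower ratios there than in members were therefore partly set by the rule. HA-Macro 12 h MEF/ES was 1.33 in the Col3a1 tile, 1.40 in the Prrx1 tile and 1.10 in the Twist1 tile. With the antibody the ratios of these tiles were 1.15, 0.945 and 0.892. Those of the Col5a2, Snai2, Lox and Postn tiles were 1.01, 0.806, 1.05 and 1.25. For HA-Macro at 12 h, the median over the fibroblast list was a log2 ratio of 0.32, with 4 of 20 at 1.5 times or more, beside the same 4.08%. The median log2 ratio was -0.30 over the pluripotency list and -0.25 over all protein-coding genes.

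The remaining named genes outside the block varied in size of effect. In the Runx1 tile HA-Macro was 31.3, 33.2 and 38.7 RPM in ES cells and 102, 94.6 and 95.6 in MEFs, and the 12 h ratio was 2.47 (2.27 to 2.70). The Adamts5 tile had 26.8, 26.0 and 23.9 in ES cells and 59.1, 65.3 and 58.3 in MEFs, with a ratio of 2.44 (2.19 to 2.73). Kcne4, which encodes a potassium channel subunit, gave 1.99 (1.79 to 2.22) at 12 h. The lowest ratios among the 11 were those of Tlr4, the receptor for lipopolysaccharide, at 1.58 (1.43 to 1.75), and Pcdh18, a cell adhesion gene, at 1.54 (1.39 to 1.71). Within 600 bases of their starts, Tlr4 and Pcdh18 had no more than 15 midpoints in any library, so no statement on their promoters was possible at this depth.

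Genes of the block made the contrast with these. Of the 18 named genes whose tile lay in it, Veph1 had the highest HA-Macro 12 h ratio, 1.91 (1.73 to 2.12), and Mbnl1, which encodes a splicing regulator, had 1.81 (1.63 to 2.02). Med12l, a gene related to a Mediator subunit, had an antibody ratio of 1.84 and an HA-Macro 12 h ratio of 1.01 (0.91 to 1.13). Pfn2, which encodes an actin-binding profilin, had 1.54 and 0.77 (0.69 to 0.87). In the Pfn2 tile the antibody gave 17.2 RPM in ES cells, whereas HA-Macro gave 40, 32.5 and 32.4 in ES cells and 25.4, 26.6 and 25.1 in MEFs. The uninduced ES library gave 38.1 there, so HA-Macro in ES cells at 6 and 12 h was not above that background.

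**Figure D5:**
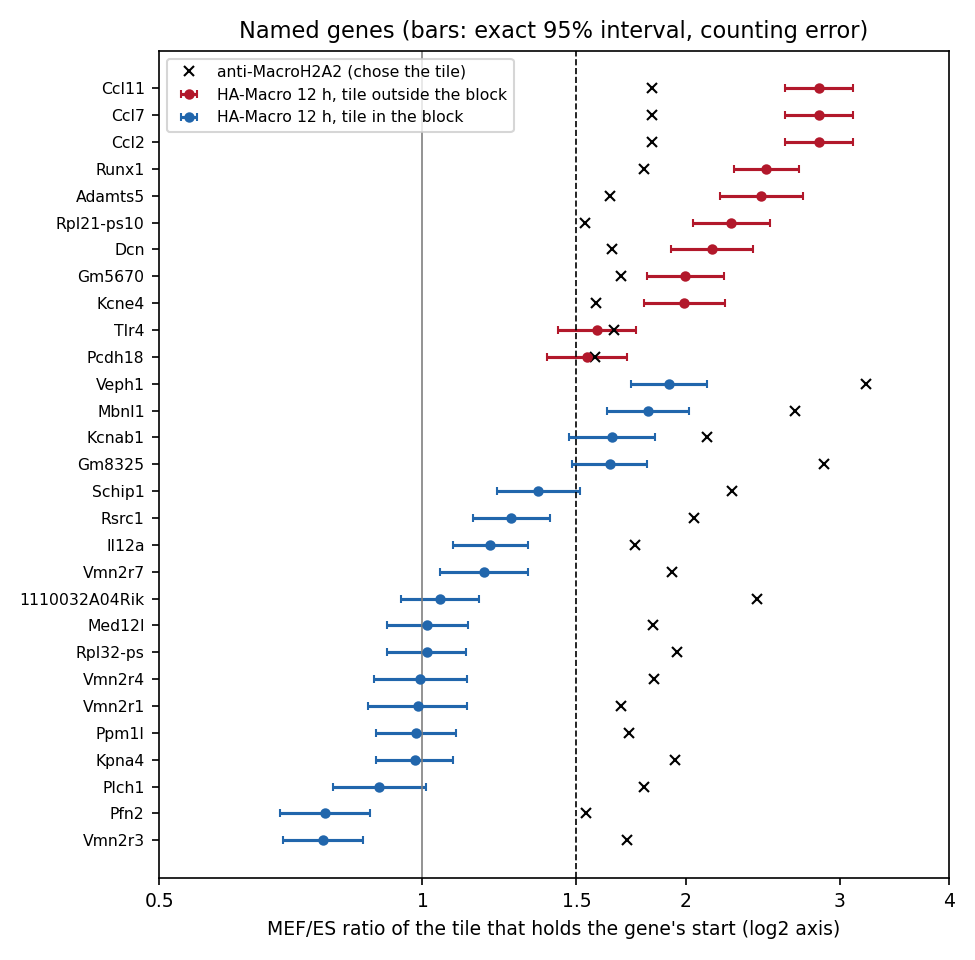
MEF/ES ratio of the tile that holds each named gene's start (log2 axis), for HA-Macro at 12 h (points, with exact 95% intervals for counting error) and for the anti-MacroH2A2 libraries that chose the tile (crosses). The 11 genes outside the chromosome 3 block (red) lie between 1.54 and 2.84 for HA-Macro, and the 18 in the block (blue) between 0.77 and 1.91, all below their crosses.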

How the data were processed

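The 11 mouse ChIP-seq libraries were used as deposited. The authors aligned reads with Bowtie 1.0 to mm9, per the submitters' processing notes, and deposited interval coordinates with 1 interval per read, without normalization. All intervals were 400 bp long in the anti-MacroH2A2 and HA-H3.3 files and 150 bp in the HA-Macro files. In the former 0.463% to 0.693% of intervals repeated another, and in the latter 3.27% to 6%. Here the midpoint of each interval was counted in 100 kb tiles and scaled to the midpoints on chromosomes 1 to 19, X and Y (RPM). Relative levels are RPM over the median eligible tile of the same library. Genes came from GENCODE vM1 and bases from the mm9 genome.

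Tiles were chosen with at least 50 midpoints, 1.5 times in MEFs and outside the top 1% of the uninduced library. The members and the gene lists were chosen with earlier results of these data known. The chromosome 3 block, the 500 kb distance and the neighbouring genes of runs were chosen after values had been seen. Named genes are protein-coding genes that start in a member tile: from each list up to 4 whose tiles had the highest antibody ratio, from each of the 10 longest runs up to 3 with the longest body, and from each of the 10 tiles with the highest antibody ratio up to 2. Other genes in the text were chosen after their values were seen. Intervals for ratios are exact conditional binomial and cover counting error of reads only. With 1 library per condition no test across samples was made. Counting steps were checked on data with known answers. Python 3.11.15, numpy 2.4.6, scipy 1.17.1, pandas 2.3.3 and matplotlib 3.10.9 were used. Alternatives in scaling, threshold, minimum, tile size, repeats, depth and time point are given in the closing section. Upstream sequences of some named genes are not reported here.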

Additional observations from a re-analysis of the deposited data

Results flagged for a closer look

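In 5 members outside the chromosome 3 block, HA-Macro at 12 h was lower in MEFs than in ES cells although the antibody was higher in MEFs. The 12 h MEF/ES ratios were 0.635 at chr10:29600001-29700000, 0.635 at chr10:37500001-37600000, 0.736 at chr10:102100001-102200000, 0.902 at chr13:111300001-111400000 and 0.661 at chr13:111500001-111600000. At 3 h all 5 tiles were higher in MEFs, with log2 MEF/ES ratios from 0.23 to 0.47, and at 6 h the ratios ran from -0.08 to 0.27. None of the 5 held a protein-coding start. In the block, 46 of the 135 members had a 12 h ratio below 1. These are opposite directions in single libraries, and the difference was not tested.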

How the results depend on the processing

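Each condition had 1 library, so no replicate could be left out, and no replicate block could be fitted, as the groups compared share fewer than 2 replicate numbers. Pairing ES and MEF libraries by Dox time is possible and was left untested, since 3 pairs cannot go below p = 0.25 in an exact two-sided test. Precision is limited to counting error, and antibody ratios near 1.5 were the least certain. Of the values recomputed, 66 stayed within the interval of the reported value or, for counts, within 1.5 times of it, and 56 did not. In this tally, intervals of medians and shares were taken across member tiles, as if tiles were independent. They do not measure counting error of reads.

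With a fold of 2 the members fell to 83, with a HA-Macro 12 h median log2 ratio of 0.51 and 38.6% at 1.5 times or more. Their levels were 0.878, 0.838 and 0.859 in ES cells and 1.21, 1.15 and 1.19 in MEFs at 3, 6 and 12 h, with 0.542 genes per tile, 84.3% of tiles in runs and a MEF 12 h over 3 h log2 ratio of 0.013. With 1 Mb tiles and a minimum of 500 midpoints, changed together, there were 19 members, a median of 0.29 and 36.8%. Chosen after seeing the data, leaving out the chromosome 3 block gave a median of 1.01, 91.7%, levels of 0.843 and 0.81 in ES cells at 3 and 6 h and 1.64, 1.62 and 1.67 in MEFs, 0.407 genes per tile, 52.6% in runs, ratios of 2.00, 1.95 and 1.97 near starts, in gene bodies and between genes, and 101 coding genes. With the fold of 2 as well, 7 tiles, a median of 1.41 and 100% remained.

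The median was 0.90 with each distinct interval counted once, 0.90 scaled to autosomes, 0.91 scaled to the median tile, 0.92 at 6 h, and 1.02 with 82.4% at 3 h. It was 0.97 with 84.6% and 55.8% in runs at a minimum of 150 midpoints, and 0.89 with 75.5% at equal depth. The 12 h over 3 h log2 ratios were -0.028 in ES cells and -0.0029 in MEFs by median tile, 0.017 in MEFs with distinct intervals, and 0.022 in ES cells against 6 h. Divided by the uninduced library, levels were 0.893, 0.877 and 0.896 in ES cells, 1.69, 1.65 and 1.72 in MEFs, and 0.917 and 0.834 for HA-H3.3. That library came from ES cells, and the series holds no uninduced MEF library, so background in MEFs was not measured. Protein-coding genes alone gave 0.219 per tile, and bridging 1 tile put 70.3% in runs. The cause of these changes was not tested.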
